A study of Homo sapiens with 6 samples.

Results

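The Hippo pathway was followed in 12Z cells, an established epithelial line from endometriosis, after knockdown of the long noncoding RNA LINC01133. The members were 33 genes listed by symbol: the pathway's kinases and scaffolds, the coactivators YAP1 and WWTR1 (TAZ), the TEAD factors with their VGLL cofactors, and classic YAP targets. All 33 were found among the 60660 genes of the count tables, and all 33 passed the filter on low counts that left 15155 genes for the test. Cells of 1 line were transfected with either a non-targeting control siRNA (3 libraries) or siRNA LINC01133a at 10 nM (3 libraries) and lysed after 72 h. Both groups went through the same lipid transfection, and only 1 of the study's siRNAs against LINC01133 was sequenced. The study describes the libraries as biological replicates, while the labels do not say whether they came from separate cultures, so p-values measure the spread between these libraries.

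In the Hippo pathway, the kinases STK3 (MST2) and STK4 (MST1), with the scaffold SAV1, activate the kinases LATS1 and LATS2, which work with MOB1A or MOB1B. LATS kinases phosphorylate YAP1 and WWTR1 and hold them in the cytoplasm. When the pathway is quiet, both coactivators enter the nucleus and bind the TEAD factors, which switch on genes for matrix-associated proteins, receptors and, as feedback, some of the pathway's own inhibitors. Most of this control acts on protein phosphorylation and location, which RNA counts do not measure.

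The knockdown was done with a duplex whose guide strand is shown first, with its seed (bases 2 to 8, counted from the 5′ end) in capitals, because the seed can also pair with other mRNAs. The sequences are those the study lists.
LINC01133a guide: uCCAUUCUcagguaacuucaa
LINC01133a sense: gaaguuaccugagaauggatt
The 3′ UTR of the canonical transcript held a 7-base match to this seed in 7 of the 33 members (21.2%): AJUBA, AMOTL1, LIMD1, MOB1A, MOB1B, TEAD1 and WWC1. The share was 17.1% over 12538 tested genes with a 3′ UTR. Among all these genes the median log2 fold change was -0.094 with a match and 0.0014 without, and the median length of the 3′ UTR was 3302 and 1098 bases. The 7 members with a match had a median of -0.063, against -0.027 for the other 26. MOB1A was the 1 member with an 8-base match, in capitals here, at chr2:74155652-74155681 on the minus strand (GRCh38).
MOB1A 3′ UTR: ttctggataagAGAATGGAggaaaatactc
MOB1A, a coactivator of the LATS kinases, was higher in knockdown cells (log2 fold change 0.20), whereas the median of all genes with an 8-base match was -0.15. None of the 4 members that changed most held a match. Of these, ANKRD1, STK3 and VGLL3 were higher, and DCHS1, which was lower, has a 3′ UTR of 449 bases. The part of seed pairing in any member's value was not tested.

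TEAD factors bind the letters GGAATG on either strand, which are shown in capitals in the 250 bases before the start of 2 target genes that moved in opposite directions. The sequences are from RefSeq (GRCh38.p14), at chr6:131951373-131951622 for CCN2 and chr10:90921088-90921337 for ANKRD1, both on the minus strand.
CCN2: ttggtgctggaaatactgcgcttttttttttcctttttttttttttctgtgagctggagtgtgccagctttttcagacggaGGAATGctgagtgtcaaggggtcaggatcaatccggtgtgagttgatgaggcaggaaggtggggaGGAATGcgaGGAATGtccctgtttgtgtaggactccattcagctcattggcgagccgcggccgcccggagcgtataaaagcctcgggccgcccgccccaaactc
ANKRD1: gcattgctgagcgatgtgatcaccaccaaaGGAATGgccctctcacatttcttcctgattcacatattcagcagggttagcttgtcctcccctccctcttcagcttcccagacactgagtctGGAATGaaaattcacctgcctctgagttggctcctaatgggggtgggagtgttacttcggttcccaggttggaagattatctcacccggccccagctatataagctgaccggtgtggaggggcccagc
CCN2 held 3 copies, starting at positions -169, -104 and -95 from the start, and ANKRD1 held 2, at -220 and -128. Of 35116 RefSeq windows of this kind (250 bases before to 50 after a start), 14.0% held at least 1 copy, 1.37% at least 2 and 0.128% at least 3. For 27 members 41 windows were listed, and 10 of the 41 (24.4%), each of a different gene (AJUBA, AMOTL2, ANKRD1, AXL, CCN2, LATS2, NUAK2, PTPN14, WWC2 and YAP1), held at least 1 copy. In knockdown cells, 4 of these 10 were higher (AJUBA, AMOTL2, ANKRD1, LATS2), 3 were lower (CCN2, NUAK2, YAP1) and 3 did not pass the test (AXL, PTPN14, WWC2). Of all 33 members, 12 were higher and 9 lower, against 23.3% and 25% of all genes tested. The AP-1 motif TGANTCA, which reads the same on both strands, was found in 3 of the 41 windows (7.32%), those of ANKRD1, LATS1 and MOB1B, and in 7.71% of all windows. The CArG box of the factor SRF was found in 0 of the 41 windows and in 1.29% of all windows. TEAD1, TEAD4, STK3, DCHS1, LIMD1 and CCN1 had no listed window, so none of these motifs was searched for them. These are matches of letters, not measured binding.

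LINC01133 itself fell from 726 to 859 counts per control library to 122 to 153 per knockdown library, a log2 fold change of -2.63 (edgeR adjusted p = 3.5e-11). The libraries held 27742562 to 37551194 counts on genes, which gave every member at least 249 counts in each library. Knockdown was compared with control cells by the quasi-likelihood test of edgeR, and adjusted p values are over all genes tested. "Higher" and "lower" are used for an adjusted p under 0.05, and "both cutoffs" for a fold change over 1.5 as well. Normalized counts are counts scaled to a common library size by the TMM method, given as mean ± SD over 3 libraries. Of the marker lists, the 6 epithelial genes summed to 199952 to 210812 normalized counts in control and 127729 to 133727 in knockdown libraries. Within that list KRT8, KRT18 and KRT19 were abundant, while EPCAM had 93 reads over all 6 libraries. At both cutoffs 4 of the 6 genes were lower: CDH1 (log2 fold change -2.02), KRT19 (-0.88), KRT8 (-0.63) and KRT7 (-0.59). In follow-up measurements the study saw the loss of CDH1 again, but could not reproduce a reduction of KRT7 and KRT19. The 8 stromal and mesenchymal genes, COL1A1, COL3A1 and VIM among them, summed to 289247 to 311830 and 273283 to 277034. COL1A1 and COL3A1, which make up most of that sum, did not pass the test, while the other 6 were lower at the adjusted p, CDH2 (log2 fold change -1.16) and PDGFRA (-1.52) at both cutoffs. The 3 leukocyte genes summed to 1615 to 1823 and 846 to 905, nearly all from CD14. CD14 was lower at both cutoffs (log2 fold change -0.98), while CD3E had 0 and PTPRC 131 reads in all. The 3 endothelial genes summed to 80 to 92 and 178 to 219, with PECAM1 at 8 reads in all. CDH5 was higher at both cutoffs (log2 fold change 1.45). The part of these shifts in the members' values was not tested.

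The share of members past both cutoffs was 12.1%, close to the 11.7% of all genes tested. Members that passed the test were divided between higher and lower, as were all genes. At both cutoffs, 3 of 33 members were higher (ANKRD1, STK3 and VGLL3), against 5.3% of all genes tested, and 1 was lower (DCHS1), against 6.43%. With library size alone as scaling, the higher share of all genes called moved from 45.2% to 55.9%, and DCHS1 (-0.53) no longer passed. At the adjusted p alone, 12 members were higher, against 23.3% of all genes, and 9 were lower, against 25%. Without regard to a test, all 3 knockdown libraries lay above all 3 controls for 12 members (28.3% of all genes) and below them for 10 (29% of all genes). The 21 members past the adjusted p are 63.6% of the members against 48.3% of all genes, and against 58.6% of the 9245 genes with a mean count at or above that of DCHS1, the lowest member (345). The median log2 fold change of the members was -0.031, and that of all genes 0.0032. In size, without regard to direction, the medians were 0.20 for the members and 0.21 for all genes.

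**Figure D1:**
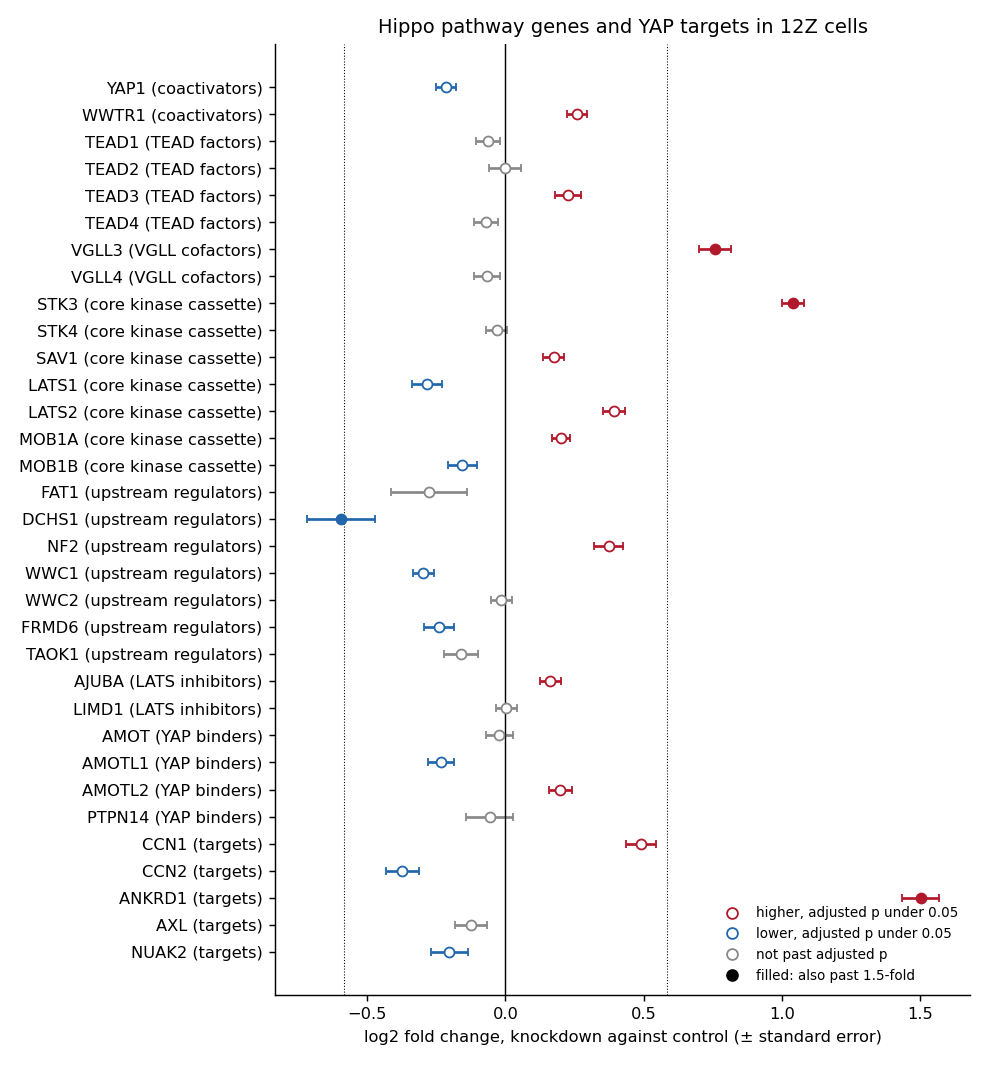
Log2 fold change (knockdown against control) with its standard error for each of the 33 members, ordered by role; filled points pass both cutoffs and dotted lines mark a 1.5-fold change. ANKRD1 (2.83-fold), STK3 (log2 fold change 1.04) and VGLL3 (0.76) lie right of the cutoff and DCHS1 (-0.60) just left of it.

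The 5 classic targets did not move together. ANKRD1 (ENSG00000148677.7, chromosome 10 from 90912096 to 90921087 of GRCh38, minus strand), a nuclear ankyrin repeat protein, had 500, 472 and 457 normalized counts under control siRNA and 1427, 1392 and 1224 after knockdown. The groups were far apart, and ANKRD1 was 2.83-fold higher (standard error 0.066 on the log2 scale, edgeR adjusted p = 2.3e-09). CCN1 (ENSG00000142871.18, chromosome 1 from 85580761 to 85584589, plus strand), which encodes the matricellular protein CYR61, had 12879, 13072 and 11922 counts in control and 18448, 18638 and 16147 in knockdown libraries. It was higher without overlap, by 0.49 on the log2 scale (standard error 0.054, edgeR adjusted p = 7.6e-06), which is under the fold change cutoff.

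CCN2 (ENSG00000118523.6, chromosome 6 from 131948176 to 131951372, minus strand), its paralog that encodes the matricellular protein CTGF, went the other way. Its counts were 3440, 3571 and 3109 in control and 2710, 2714 and 2381 in knockdown libraries, again without overlap. The log2 fold change was -0.37 (standard error 0.059, edgeR adjusted p = 1.7e-04), and refits that each dropped 1 library gave -0.43 to -0.31. The ratio of CCN1 to CCN2 counts, which does not depend on scaling between libraries, was 3.75 ± 0.087 in control and 6.82 ± 0.044 in knockdown libraries (SD, n = 3 each). For this ratio an exact two-sided permutation test gave p = 0.10, the smallest that 3 libraries against 3 allow. As CCN1 was higher and CCN2 lower without overlap, the ratio had to separate the groups, so this p adds nothing to the separate results.

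NUAK2, a kinase of the AMPK family, had 396, 397 and 404 counts in control and 337, 351 and 353 in knockdown libraries. It was lower by a small step (log2 fold change -0.20, edgeR adjusted p = 0.025), and the threshold was missed in refits that dropped knockdown replicate 1 (0.11), knockdown replicate 2 (0.063) or the third control (0.060), when only library size set the scale (0.11), with DESeq2 (0.097) and with no filter on low counts (0.063). AXL, a receptor tyrosine kinase, had 16637, 18071 and 15682 counts in control and 15968, 16113 and 14129 in knockdown libraries, so the groups overlapped. Its log2 fold change was -0.12 (standard error 0.057, edgeR adjusted p = 0.088), and it passed in the refit that dropped control replicate 3 (-0.17, adjusted p = 0.030), with no filter on low counts (0.0082) and with the replicate number as a block (0.0135). Of the 5 targets, then, 2 were higher (23.3% of all genes), 2 lower (25%) and 1 did not pass. With the block AXL was lower as well.

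**Figure D2:**
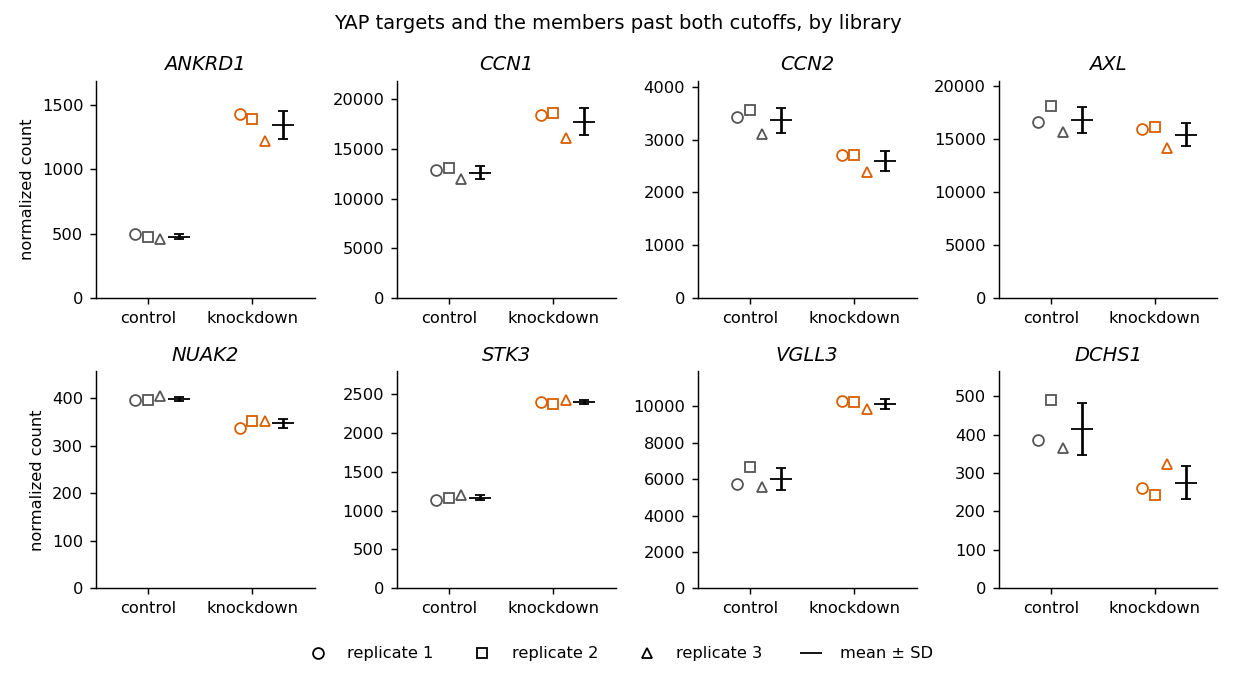
Normalized count in each library (symbols mark replicates 1 to 3, bars the mean ± SD) for the 5 targets and the 3 other members past both cutoffs, on axes that start at 0. ANKRD1, CCN1, STK3 and VGLL3 are higher in all 3 knockdown libraries, CCN2, NUAK2 and DCHS1 lower, and AXL overlaps.

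Replicate 3 held the lowest count of ANKRD1, CCN1, CCN2 and AXL in both the control and the knockdown group. This held for 4 of 5 targets, for 10 of the 33 members and for 13.4% of all genes tested. The full order of libraries was not shared: in both groups ANKRD1 was highest in replicate 1, and CCN1, CCN2 and AXL in replicate 2. In knockdown libraries, the count of replicate 3 was 16147 for CCN1 against 18448 and 18638, and 14129 for AXL against 15968 and 16113. NUAK2 differed, with its highest count in replicate 3 of either group. The replicate numbers did not pair the libraries over all genes.

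The coactivators moved in opposite directions by small steps. YAP1 (ENSG00000137693.14, chromosome 11 from 102110447 to 102233424, plus strand) had 15945, 17111 and 16332 counts in control and 14031, 14263 and 14263 in knockdown libraries. It was lower without overlap (log2 fold change -0.21, standard error 0.037, edgeR adjusted p = 3.1e-04). WWTR1, which encodes TAZ, had 3025, 3144 and 3101 counts in control and 3668, 3659 and 3769 in knockdown libraries. It was higher without overlap, by 0.26 (standard error 0.037, edgeR adjusted p = 6.5e-05). Per kilobase of merged exons, the sum of the pair was 2978 ± 101 in control and 2691 ± 25.3 in knockdown libraries (SD, n = 3 each), and YAP1 made up 87.6% and 83.5% of it.

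Of the TEAD factors, the DNA-binding partners of both coactivators, 1 of 4 passed the test, against 48.3% of all genes. TEAD3 had 1020, 978 and 1017 counts in control and 1137, 1218 and 1180 in knockdown libraries, a log2 fold change of 0.23 (standard error 0.047, edgeR adjusted p = 0.0013). TEAD1 had 16597, 18617 and 16584 counts against 16529, 16516 and 16544, which did not overlap but lay close, with an adjusted p of 0.27. TEAD2 (700 ± 36.1 against 698 ± 25.1) and TEAD4 (1585 ± 42.0 against 1510 ± 60.9) overlapped between the groups, with adjusted p values of 0.97 and 0.21. Per kilobase, TEAD1 was the most abundant of the 4 (56.1% of the TEAD sum in control cells), followed by TEAD4 (24.2%), TEAD3 (11.5%) and TEAD2 (8.17%). The TEAD sum itself overlapped between the groups and was 98.4% of the control level in knockdown cells.

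The VGLL proteins bind TEAD factors in place of the coactivators, VGLL4 as a repressor. VGLL3 (ENSG00000206538.9, chromosome 3 from 86876388 to 86991149, minus strand) had 5754, 6689 and 5543 counts in control and 10296, 10264 and 9828 in knockdown libraries. It was higher in every knockdown library than in any control library (log2 fold change 0.76, standard error 0.058, edgeR adjusted p = 2.9e-07). VGLL4 had 1547, 1489 and 1603 counts against 1512, 1414 and 1504, with overlap and an adjusted p of 0.25. VGLL3 was thus 68.5% of the per-kilobase sum of the pair in control and 79.5% in knockdown cells.

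In the kinase cassette, 4 of 7 members were higher (23.3% of all genes) and 2 lower (25%). STK3 (ENSG00000104375.17, chromosome 8 from 98371228 to 98942827, minus strand), which encodes the kinase MST2, had 1130, 1166 and 1197 counts in control and 2390, 2368 and 2424 in knockdown libraries. It was 2.06-fold higher with little spread (log2 fold change 1.04, standard error 0.041, edgeR adjusted p = 8.9e-10). Its paralog STK4 (MST1) had 4361, 4588 and 4289 counts in control and 4377, 4311 and 4260 in knockdown libraries, which overlapped (adjusted p = 0.52). STK3 rose from 25.8% to 42.2% of the per-kilobase sum of both kinases, or from 37.2% to 55.5% with the length of the canonical transcript in place of merged exons, a choice made after the data were seen. So which of the pair was the more abundant in knockdown cells depended on the length used.

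The other cassette members changed by less than 1.5-fold. LATS2, a kinase that is itself a YAP target, was higher, from 4051 ± 177 to 5322 ± 66.0 counts (log2 fold change 0.39, edgeR adjusted p = 3.6e-06). LATS1 was lower, from 2781 ± 215 to 2284 ± 91.6 (log2 fold change -0.28, adjusted p = 6.8e-04). Neither gene overlapped between the groups, and LATS2 went from 68.8% to 77.9% of their per-kilobase sum. SAV1, the scaffold of the MST kinases, was higher by 0.17 (adjusted p = 0.0020) and MOB1A by 0.20 (adjusted p = 2.5e-04). MOB1B, the less abundant of the MOB1 pair (10.8% of their per-kilobase sum in control cells), was lower by a small step (log2 fold change -0.16, adjusted p = 0.024) that overlapped between the groups. Dropping control replicate 2 (0.055), control replicate 3 (0.082), knockdown replicate 1 (0.10) or knockdown replicate 2 (0.073) ended that call, as did library size alone (0.14).

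Among 7 upstream regulators, 1 was higher (23.3% of all genes), 3 were lower (25%) and 3 did not pass. DCHS1 (ENSG00000166341.8, chromosome 11 from 6621330 to 6655809, minus strand), a giant cadherin that is the ligand of FAT proteins, had 387, 491 and 366 counts in control and 260, 242 and 323 in knockdown libraries. It was lower, close to the fold change cutoff (log2 fold change -0.60, standard error 0.12, edgeR adjusted p = 0.0013). Refits that dropped knockdown replicate 1 (-0.55), knockdown replicate 2 (-0.51) or the second control (-0.47) did not reach that cutoff. FAT1, a giant cadherin of the FAT family, had 7154, 11091 and 6788 counts in control and 7171, 6192 and 7278 in knockdown libraries, so that control replicate 2 stood alone. Its log2 fold change was -0.28 (adjusted p = 0.11), -0.022 without that library and -0.40 without control replicate 3 (adjusted p = 0.028). With no filter on low counts it passed at the same size (7.1e-10), with control replicate 2 included. That fit shifted edgeR adjusted p values widely, as for VGLL3 (2.9e-07 to 1.9e-70) and NUAK2 (0.025 to 0.063).

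NF2, which encodes the scaffold merlin, was higher, with 2801, 2958 and 2717 counts in control and 3836, 3784 and 3348 in knockdown libraries (log2 fold change 0.37, edgeR adjusted p = 6.8e-05). WWC1, the scaffold KIBRA that works with merlin, was lower, with 2879, 2814 and 2868 counts against 2262, 2328 and 2383 (log2 fold change -0.30, adjusted p = 2.7e-05). Its relative WWC2 overlapped between the groups (adjusted p = 0.77). FRMD6, a FERM protein at the plasma membrane, was lower (log2 fold change -0.24, adjusted p = 0.0029). TAOK1, a kinase that activates the MST kinases, had a log2 fold change of -0.16 that just missed the threshold (adjusted p = 0.050). At about the same size it passed with DESeq2 (adjusted p = 0.022), median-of-ratios factors (0.0497), no filter on low counts (6.6e-04) and the unstranded counts (0.041). It also passed without control replicate 1 (-0.20, adjusted p = 0.034) or control replicate 3 (-0.21, adjusted p = 0.016), and was -0.065 without control replicate 2.

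The LIM proteins AJUBA and LIMD1 restrain LATS kinases, and the angiomotins and the phosphatase PTPN14 hold YAP1 in the cytoplasm. AJUBA was higher by 0.16 (edgeR adjusted p = 0.0028), from 5079 ± 51.0 to 5685 ± 196 counts, and LIMD1 overlapped between the groups (2032 ± 34.7 against 2036 ± 3.72), although in the unstranded counts it was higher by 0.15 (adjusted p = 0.038). AMOTL2, which is also a YAP target, was higher by 0.20 (adjusted p = 0.0015), with 6017, 5570 and 6069 counts in control and 6767, 6938 and 6561 in knockdown libraries. AMOTL1 was lower (log2 fold change -0.23, adjusted p = 0.0013), with 2483, 2756 and 2575 counts against 2255, 2106 and 2287. AMOT and PTPN14 overlapped between the groups, with adjusted p values of 0.73 and 0.61. In both groups AMOTL2 was the most abundant angiomotin, at 59.6% of the per-kilobase sum in control and 64.6% in knockdown cells.

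Levels of different members can be compared only per length. In control cells CCN1 (3414 normalized counts per kilobase of merged exons), AXL (3272), YAP1 (2609), MOB1A (1841) and TEAD1 (1614) were the highest, in this order, and the same 5 genes led in the same order with canonical transcript lengths. DCHS1 was the lowest on either length, at 38.5. ANKRD1 went from 266 to 753 per kilobase of merged exons. STK4 was also at 266 in control cells on that length but at 693 with the canonical length, so the order of this pair is uncertain. STK3 rose from 92.4 to 190 on this scale, but its control level was 411 with the canonical length, and its place among the members is uncertain for that reason.

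**Figure D3:**
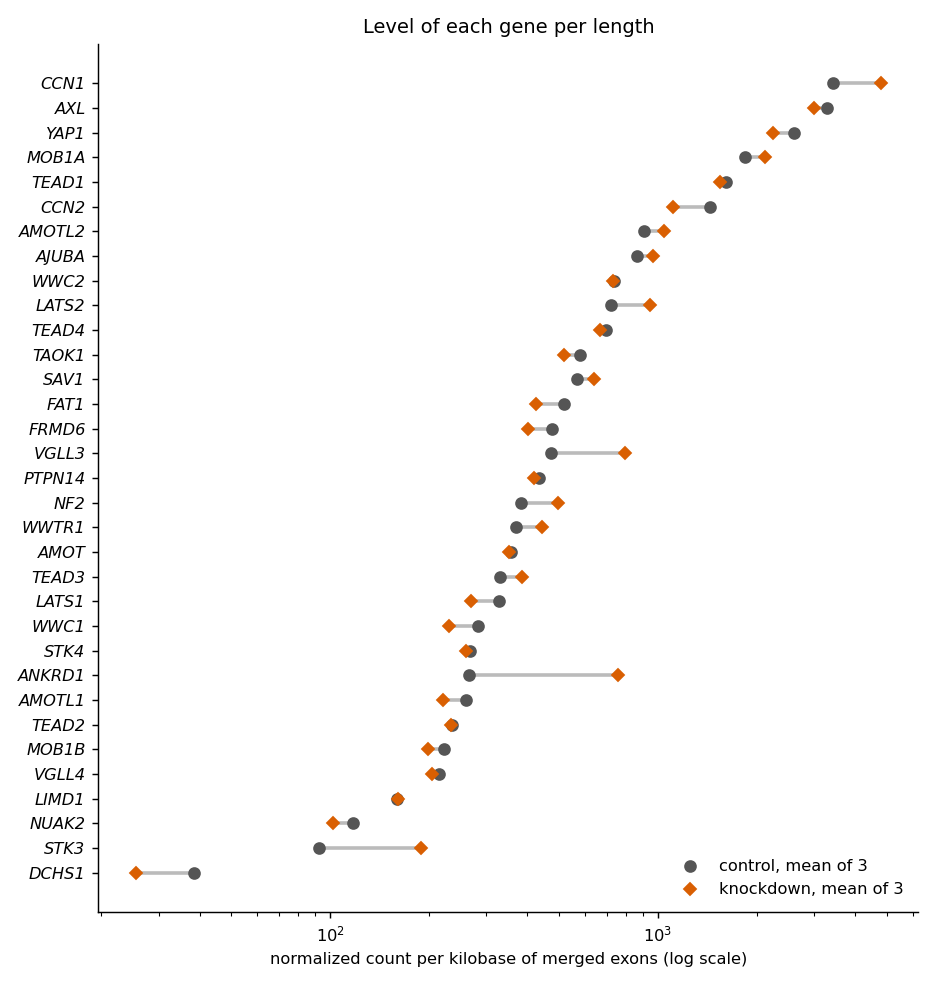
Mean normalized count per kilobase of merged exons, on a log scale, for each member in control (circles) and knockdown cells (diamonds), ordered by the control level. ANKRD1 (266 to 753), STK3 (92.4 to 190) and VGLL3 (471 to 795) show the widest gaps.

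A signature of 22 YAP and TAZ targets, 8 of which are members, was read in the same way. It was divided too, with 11 genes higher (23.3% of all genes) and 8 lower (25%) at the adjusted p. At both cutoffs 3 were higher (5.3% of all genes) and 2 lower (6.43%). In all, 86.4% of the signature passed the adjusted p, against 48.3% of all genes. Of the 9245 genes with a mean count at or above that of DCHS1, 58.6% passed. The signature, like the members, was chosen with earlier results of these data known. Its median log2 fold change was 0.071, and the median size of change was 0.37, against 0.21 for all genes. Among the 14 genes that are not members, TGFB2, a ligand of the TGF-beta family, rose from 1082 ± 118 to 2919 ± 286 counts (log2 fold change 1.44, edgeR adjusted p = 1.4e-08). FJX1, which encodes a relative of the fly kinase four-jointed, rose from 328 ± 20.7 to 747 ± 70.8 (log2 fold change 1.19, edgeR adjusted p = 8.6e-08). IGFBP3, which binds insulin-like growth factors, fell from 2673 ± 129 to 1382 ± 159 counts (log2 fold change -0.96, adjusted p = 1.2e-07). CCDC80, a matrix protein, fell from 68877 ± 7530 to 40088 ± 788 counts (log2 fold change -0.78, adjusted p = 3.1e-07). For each of these 4 genes the groups did not overlap.

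**Figure D4:**
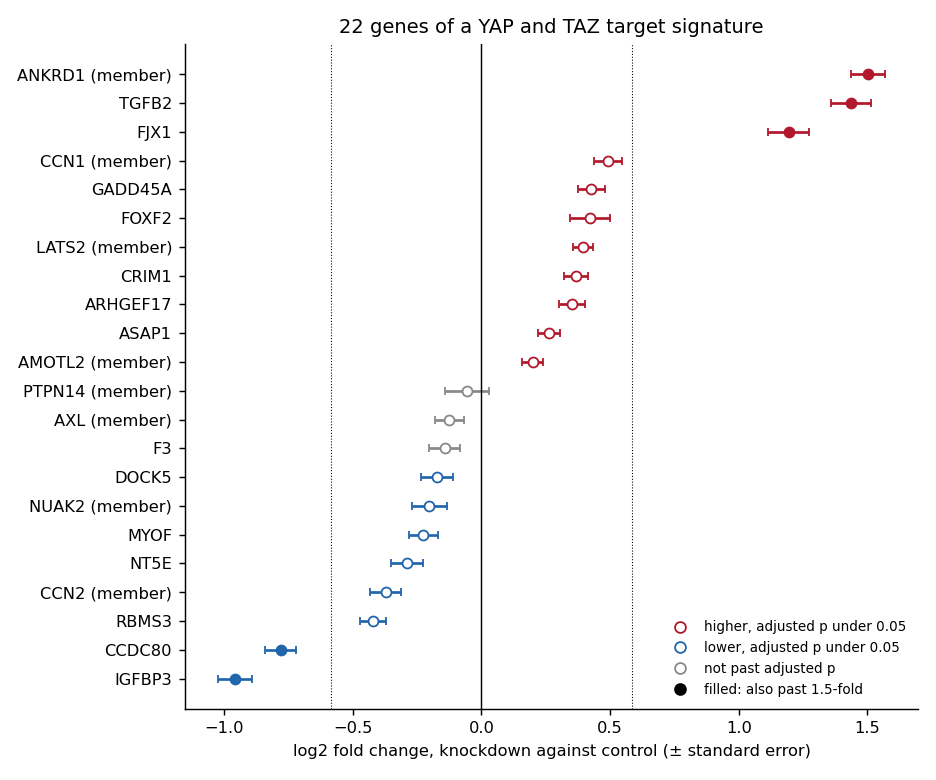
Log2 fold change with its standard error for the 22 signature genes, sorted; filled points pass both cutoffs and dotted lines mark a 1.5-fold change. ANKRD1, TGFB2 and FJX1 are past the cutoff on the right, CCDC80 and IGFBP3 on the left, and CCN1 and CCN2 lie on opposite sides of 0.

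Of 52 other genes of the Hippo network (polarity proteins, MAP4K and TAO kinases, RASSF proteins and the STRIPAK phosphatase complex), 44 had counts high enough to be tested. At the adjusted p, 13 were higher (23.3% of all genes) and 12 lower (25%), and the median log2 fold change was -0.011. At both cutoffs 0 were higher (5.3% of all genes) and 2 lower (6.43%). PALS1, a polarity scaffold of the Crumbs complex, fell from 4313 ± 191 to 2790 ± 41.9 counts (log2 fold change -0.63, edgeR adjusted p = 6.7e-08). BTRC, which encodes a subunit of the ubiquitin ligase that marks phosphorylated YAP1 for breakdown, fell from 2168 ± 99.1 to 1326 ± 33.4 (log2 fold change -0.71, adjusted p = 5.3e-08). The cofactors VGLL1 and VGLL2 had 0 and 6 reads over the 6 libraries and were not tested.

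ANKRD1, CCN1 and CCN2 are also targets of the factor SRF and its MRTF cofactors, so a list of 15 SRF and MRTF targets, none of them a member, was counted. Of the 14 tested, 7 were higher (23.3% of all genes) and 2 lower (25%), with a median log2 fold change of 0.18. At both cutoffs 1 was higher (5.3% of all genes) and 0 were lower (6.43%). This gene, CNN1, a calponin of contractile cells, rose from 78.8 ± 1.09 to 203 ± 24.6 counts (log2 fold change 1.37, edgeR adjusted p = 1.4e-06). The part of SRF and MRTF in any member's value was not tested.

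Control replicate 2 stood apart from the other controls, most of all for some of the long members. It had the highest count of the 3 controls for 23 of 33 members, against 35.1% of all genes. Of the members, 17 belonged to the longest of 4 equal classes of tested genes by merged exon length (over 7759 bases). In that class the median gene differed by 0.044 on the log2 scale between this library and the other controls, against -0.029 in the shortest class. The difference was 0.67 for FAT1, 0.39 for PTPN14, 0.38 for DCHS1 and 0.28 for TAOK1. It was 0.24 for VGLL3 and 0.0034 for STK3, whose log2 fold changes without this library were 0.84 and 1.04. In the same class the difference was 0.085 for STK4, 0.023 for LIMD1 and -0.030 for WWC1. For AXL and CCN2, which are shorter, it was 0.16 and 0.13. The part of transcript length in the members' values was not tested further.

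**Figure D5:**
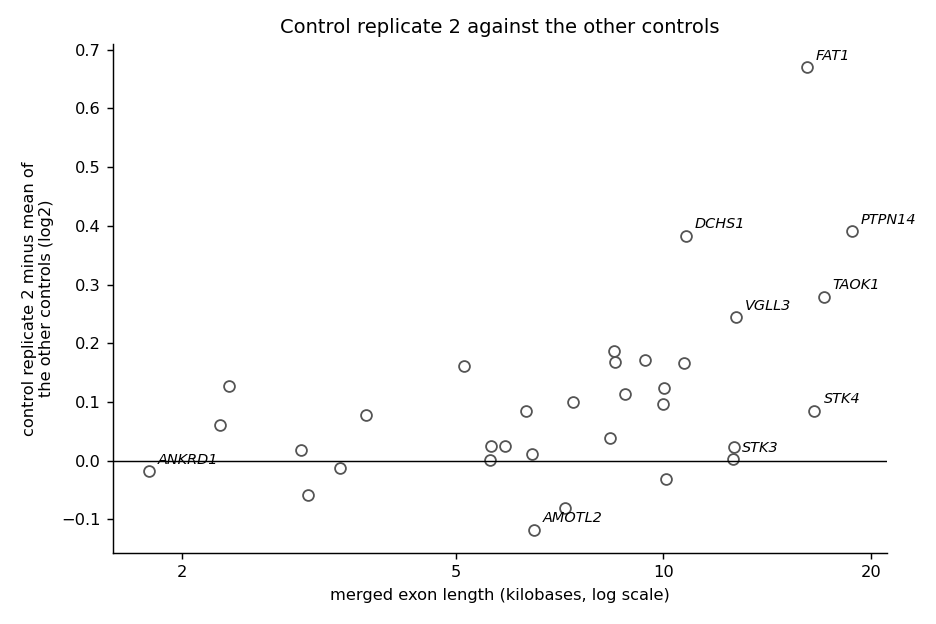
Difference on the log2 scale between control replicate 2 and the mean of the other 2 controls, against merged exon length (log scale), with 1 point per member. FAT1 (0.67), PTPN14 (0.39), DCHS1 (0.38) and TAOK1 (0.28) lie highest, while STK3 (0.0034) and ANKRD1 (-0.018) lie near 0.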

How the data were processed

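Poly-A RNA of 12Z cells was sequenced in 3 control and 3 knockdown libraries. The authors aligned read pairs with STAR 2.7.6a to GRCh38.p13 with GENCODE v36 (SAMtools 1.10 was also used), kept uniquely mapped reads, and deposited raw counts per gene without normalization. Uniquely mapped counting can miss reads of genes with pseudogenes, which the annotation lists for FAT1, MOB1A and YAP1. Counts on the strand opposite to read 1 made up 93.9% to 94.1% of stranded counts, and that column was used. Reads outside genes, on several genes or only on the other strand of a gene (together 8.50% to 9.44% of uniquely mapped reads) were left out. No 2 libraries of a group matched within sampling noise.

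Symbols came from GENCODE v44, matched by gene ID (60463 of 60660). Genes were filtered by filterByExpr (minimum count 10), scaled by TMM, and tested across all 15155 genes in edgeR 4.0.16 under R 4.3.3 (quasi-likelihood test, a single term for condition, p-values adjusted by Benjamini-Hochberg). Standard errors were derived from the F statistic. Cutoffs were those of the study, which used DESeq2. The fit was tested on simulated data. Lengths and 3′ UTRs came from GENCODE v44 (merged exons; canonical transcripts).

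All members were described. From each wider list, up to 4 highest and 4 lowest non-members past both cutoffs were named. Members and lists were chosen with earlier results of these data known. Alternatives were DESeq2 1.42.0, median-of-ratios factors, library size alone, no filter, 10 counts in every library, the unstranded column, glmTreat, a replicate block, each library left out, and an 8-base seed match.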

Additional observations from a re-analysis of the deposited data

How the results depend on the processing

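Across 14 alternatives, 442 of 462 member log2 fold changes kept their direction and their call at both cutoffs, passed or not. A member under the fold change cutoff counted as kept even where its adjusted p crossed 0.05. With library size alone, NUAK2 (edgeR adjusted p from 0.025 to 0.11) and MOB1B (0.024 to 0.14) rose over 0.05 and counted as kept. FAT1, which passed 0.05 with no filter on low counts (0.11 to 7.1e-10), was also counted as kept. The unfiltered fit shifted adjusted p values widely, so its passes for FAT1, AXL and TAOK1 are not comparable with the main fit. None of the 21 members past the adjusted p changed direction. The count of members higher at both cutoffs stayed at 3, and the signature counts at 3 and 2, under each alternative run. The member lower at both cutoffs, DCHS1, left a count of 0 with library size alone, the unstranded column or glmTreat, and the count was 0 to 1 with each library left out. At the adjusted p, 12 members were higher (13 in the unstranded counts, LIMD1 gained) and 7 to 10 lower with each library left out. LINC01133 lay between -2.65 and -2.61 in those fits. Members with a seed match were 7 for 7 bases and 1 for 8 bases. With library size alone, members near 0 turned positive: TEAD1 (0.00054), TEAD2 (0.059), STK4 (0.031), WWC2 (0.048), AMOT (0.041) and PTPN14 (0.0075). TEAD2 was 0.00096 with 10 counts in every library. With each library left out, TEAD2 ranged from -0.041 to 0.033, LIMD1 from -0.011 to 0.012, WWC2 from -0.034 to 0.015, AMOT from -0.056 to 0.033 and PTPN14 from -0.12 to 0.083. The cause was not tested.

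Same-numbered libraries did not deviate together (correlations of -0.015, 0.0049 and 0.057 over all genes), and not every library correlated best with its own number. With the replicate number as a block, 12 members were higher and 10 lower at the adjusted p (AXL gained), 3 and 1 at both cutoffs, and LINC01133 was -2.63. With 3 libraries a group, small changes such as those of NUAK2, MOB1B and TAOK1 sit at the limit of what this depth and spread can show.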
